A study of Mus musculus with 96 samples.

Results

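Lipopolysaccharide (LPS), the endotoxin of Gram-negative bacteria, was injected into the abdomen of mice, and the RNA bound to the ribosomes of their striatal astrocytes was compared with that of mice injected with vehicle. The comparison used 8 of the 96 libraries of the series, the pull-down (IP) libraries of 4 LPS mice and of the 4 vehicle mice that the labels place in the same experiment, across all 24060 gene entries. All 8 mice were C57BL/6, and each had received into the striatum a RiboTag AAV, a virus from which astrocytes make the ribosomal protein Rpl22 with a haemagglutinin (HA) tag, 3 weeks before the RNA was taken. The LPS group received 5 mg/kg by intraperitoneal injection 24 h before, and the control group received vehicle by the same route. An antibody against the HA tag pulled the tagged ribosomes and their RNA out of the striatal homogenate, and the cleared lysate of the same mouse was sequenced as input. The promoter of the RiboTag virus is not given in the sources used here. The labels number the 4 mice of each group, and p-values below measure the spread between these mice. Since each library pools many tagged cells, fewer tagged cells of a kind and less RNA per cell cannot be told apart.

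LPS is recognised by the receptor Tlr4 with its partners Ly96 (MD-2) and Cd14, and the signal runs through the adaptors Myd88 and Ticam1 to NF-kappa-B and to interferon genes. Given outside the brain, LPS also raises cytokines and glucocorticoids in the blood, and these act on cells that carry their receptors. Astrocytes line blood vessels and synapses, take up glutamate and potassium, and respond to inflammatory cytokines with a change of state that is marked by Gfap, acute-phase proteins and complement.

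Expression is given as FPKM, fragments per kilobase of gene scaled to library size, as deposited. Changes are log2 ratios of LPS over vehicle with their standard error, on the scale log2(FPKM + 0.1) after scaling between libraries, so that changes of genes near 0.1 FPKM are understated. A gene rose or fell where its limma p, adjusted by Benjamini and Hochberg over all 13641 genes tested, was under 0.05. Depth was even, at 42482790 to 49385096 reads in genes in the LPS IP libraries and 44039364 to 48389012 in the vehicle IP libraries. One LPS library stood apart before any single gene is considered. Its position was taken over the 4153 genes that were called and differed by at least 0.5 log2 units between vehicle and the other LPS mice. The median position of LPS replicate 2 was 18.8% of the way from the vehicle mean to the mean of LPS replicates 1, 3 and 4. By a fit that gives more weight to genes with larger changes it lay at 33.3%, and its input library lay at 34.7% by such a fit. The other LPS mice lay by this fit at 97.1 to 103% in IP and the vehicle mice at -7.13 to 8.07%, with vehicle replicate 4 the highest. The genes and the axis were set from these other mice, so that they center on its ends by construction. A mouse left out of the axis tends to fall short of its end, and how far was not tested. Values are therefore given per mouse where they matter, and results are given with all libraries and without LPS replicate 2.

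With all 8 libraries, 4919 of 13641 genes changed (36.1%), 2720 higher (19.9%) and 2199 lower (16.1%). A change of at least 2-fold was called for 695 genes higher (5.09%) and 253 lower (1.85%). When LPS replicate 2 was left out, 8394 genes changed (61.5%), 4349 higher (31.9%) and 4045 lower (29.7%), and those changed at least 2-fold numbered 905 (6.63%) and 568 (4.16%). Leaving out any 1 of the 7 other libraries lowered the count to 2252 to 3214 genes, 1432 to 1878 higher and 820 to 1336 lower. Scaling between libraries also matters for the split, since LPS replicates 1, 3 and 4 had scaling factors of 0.904 to 0.924 against 1.06 in the others. Without scaling, the median of all genes moved to -0.16 and 1833 genes were higher against 4022 lower, so that 31.3% of the calls were higher instead of 55.3%. The deposited values of the groups did not overlap for 35.7% of the tested genes. Changes below are relative to the scaled libraries. Counts of gene lists are read against these background shares, and a list near them is no result about the list. A list count with a library left out, or without scaling, is read against the totals of that same fit.

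**Figure D1:**
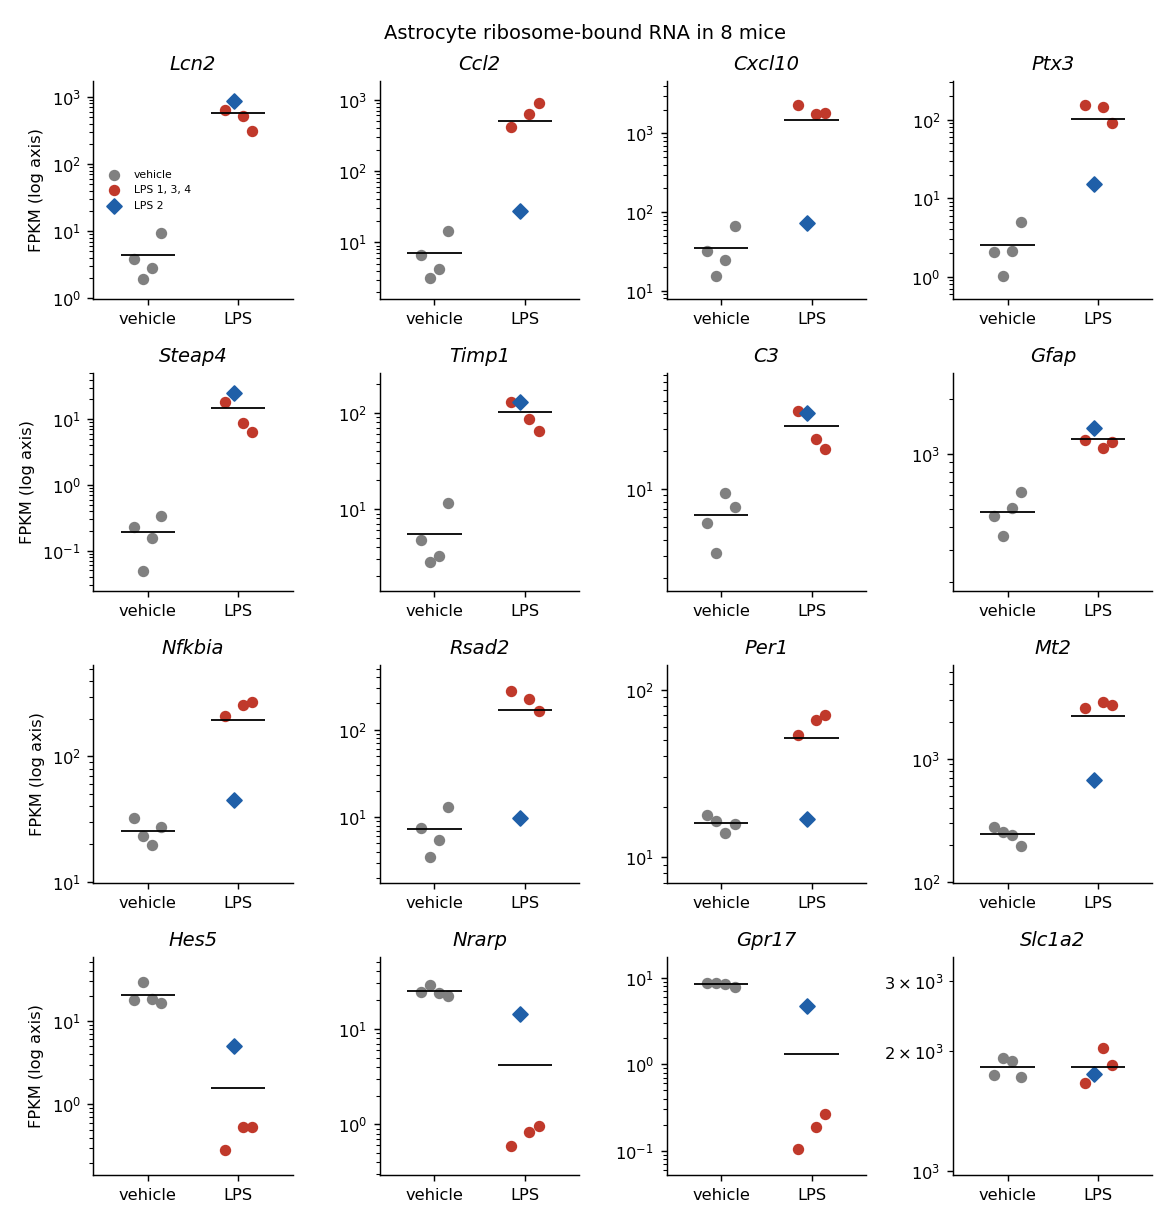
FPKM on a log axis of 16 genes in the 8 mice, with vehicle in grey, LPS replicates 1, 3 and 4 in red, LPS replicate 2 as a blue diamond and the group mean as a bar. Replicate 2 sat with the other LPS mice for Lcn2, Steap4, Timp1, C3 and Gfap, near the vehicle mice for Cxcl10, Rsad2 and Per1, and between both for Hes5, Nrarp and Gpr17.

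The leading changes named here are those of called genes that averaged 2 FPKM or more and whose groups did not overlap. Among rises, Lcn2, a secreted protein that binds iron-carrying siderophores, stood at 3.79, 1.93, 2.81 and 9.29 FPKM in vehicle mice 1 to 4 and at 635, 863, 512.9 and 306 FPKM in LPS mice 1 to 4. Every LPS mouse was far above every vehicle mouse, LPS replicate 2 was the highest of all, and the log2 change was 7.30 ± 0.46 (limma adjusted p = 0.000102) and 7.13 without replicate 2. Ccl2, the chemokine that draws monocytes, stood at 6.62, 3.18, 4.28 and 14.4 FPKM in vehicle mice and at 418, 27.7, 635 and 912 FPKM in LPS mice. Its groups did not overlap either, but LPS replicate 2 reached only 27.7 FPKM, and the log2 change of 5.71 ± 1.07 (limma adjusted p = 0.00734) became 6.88 without it. Ptx3, a secreted pentraxin that binds microbes and complement, ran at 2.04, 1.03, 2.13 and 5.02 FPKM in vehicle and 155, 15.03, 144 and 90.8 FPKM in LPS mice, with a log2 change of 5.18 ± 0.79 (limma adjusted p = 0.00352) that became 6.00 without replicate 2. The other genes of the 10 largest such rises were Serpina3m, a serine protease inhibitor, the fibrinogen chain Fga, the sphingosine kinase Sphk1, the metalloreductase Steap4, the TNF-induced gene Tnfaip2, the Toll-like receptor Tlr2, which binds bacterial lipoproteins, and Angptl4, an inhibitor of lipoprotein lipase. Their log2 changes ran from 5.02 for Angptl4 to 6.29 for Serpina3m, and from 5.39 for Steap4 to 7.31 for Fga without replicate 2. Steap4 was highest in LPS replicate 2, at 25.3 FPKM against 6.39 to 18.3 FPKM in the other LPS mice, whereas Fga reached 0.892 FPKM there against 14.6 to 19.3 FPKM. Fga did not pass by limma-voom on recovered reads (adjusted p = 0.0846).

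The largest such falls were of Hes5 and Nrarp, a pair of targets of the Notch receptors, and of Gpr17, a receptor of the oligodendrocyte lineage. Hes5, a transcriptional repressor, stood at 17.7, 29.4, 18.1 and 16.4 FPKM in vehicle mice and at 0.286, 4.98, 0.532 and 0.536 FPKM in LPS mice. All LPS mice were below all vehicle mice, with replicate 2 the highest of them, and the log2 change was -4.26 ± 0.67 (limma adjusted p = 0.00404) and -5.02 without replicate 2. Nrarp, which Notch induces and which promotes the loss of the active Notch fragment, stood at 24.4, 28.6, 23.8 and 22.2 FPKM in vehicle mice and at 0.590, 14.4, 0.822 and 0.960 FPKM in LPS mice. LPS replicates 1, 3 and 4 were under 1 FPKM and replicate 2 lay closer to vehicle, with a log2 change of -3.66 ± 0.81 (limma adjusted p = 0.0130) and -4.62 without it. Gpr17 stood at 8.72, 8.75, 8.38 and 7.74 FPKM in vehicle mice and at 0.105, 4.68, 0.190 and 0.263 FPKM in LPS mice, with a log2 change of -3.78 ± 0.84 (limma adjusted p = 0.0128) and -4.76 without replicate 2. The rest of the 10 largest such falls were the mitochondrial adenylate kinase Ak4, the receptor-retaining protein Shisa2, Fam13c, Kctd21, Fam198a, the spindle-orienting protein Insc and the lens filament protein Bfsp2, with log2 changes from -2.15 for Ak4 to -1.88 for Bfsp2. The call of Kctd21 was lost without LPS replicate 3 or without vehicle replicate 2 (highest limma adjusted p = 0.0576).

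The promoters of 4 genes that rose or fell are shown because they carry or lack letter patterns of factors whose genes changed. They are RefSeq promoters of build GRCm38.p6, each from 250 bases before to 50 bases after the start of transcription, on the strand of the gene. Capitals mark every match, on either strand, to the letters GGGNNNTTCC (NF-kappa-B), GAAANNGAAA (interferon-stimulated response element), TTCNNNGAA (STAT), TTNNGNAA (C/EBP) or TGGGAA (RBPJ, the factor through which Notch acts). Lcn2 lies at chr2:32387690-32387989 on the minus strand, Cxcl10 at chr5:92348840-92349139 on the minus strand, Hes5 at chr4:154960673-154960972 on the plus strand and Nrarp at chr2:25180508-25180807 on the plus strand, and the promoter of Ccl2 is named only.
Lcn2: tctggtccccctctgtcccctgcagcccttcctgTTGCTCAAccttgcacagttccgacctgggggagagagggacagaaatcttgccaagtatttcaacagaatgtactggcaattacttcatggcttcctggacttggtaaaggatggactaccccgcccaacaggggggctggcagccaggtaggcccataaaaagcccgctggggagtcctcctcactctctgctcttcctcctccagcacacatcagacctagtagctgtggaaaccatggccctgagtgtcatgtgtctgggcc
Cxcl10: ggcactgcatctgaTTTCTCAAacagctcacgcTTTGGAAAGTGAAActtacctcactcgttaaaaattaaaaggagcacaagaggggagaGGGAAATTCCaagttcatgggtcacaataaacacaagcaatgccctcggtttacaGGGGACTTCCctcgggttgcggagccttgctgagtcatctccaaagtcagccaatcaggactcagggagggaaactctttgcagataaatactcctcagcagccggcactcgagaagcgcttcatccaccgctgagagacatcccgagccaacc
Hes5: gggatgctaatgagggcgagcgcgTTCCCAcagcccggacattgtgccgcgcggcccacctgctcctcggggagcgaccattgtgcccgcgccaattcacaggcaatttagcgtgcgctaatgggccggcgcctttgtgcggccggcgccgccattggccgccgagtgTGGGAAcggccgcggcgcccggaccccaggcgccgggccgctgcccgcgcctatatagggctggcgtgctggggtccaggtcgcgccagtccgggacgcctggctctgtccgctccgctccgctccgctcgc
Nrarp: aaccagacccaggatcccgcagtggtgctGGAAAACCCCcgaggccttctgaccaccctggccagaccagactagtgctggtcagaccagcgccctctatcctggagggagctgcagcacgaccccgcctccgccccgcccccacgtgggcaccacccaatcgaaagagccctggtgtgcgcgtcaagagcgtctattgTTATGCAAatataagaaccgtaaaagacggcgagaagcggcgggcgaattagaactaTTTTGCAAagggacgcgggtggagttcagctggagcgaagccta
Counted from the start site, Cxcl10 holds NF-kappa-B letters at -159 and -104, interferon-stimulated letters at -213 and C/EBP letters at -236 and -217, and the last of these overlaps the interferon-stimulated match. Lcn2 holds C/EBP letters at -216, Hes5 holds RBPJ letters at -226 and -82, and Nrarp holds NF-kappa-B letters at -221 and C/EBP letters at -51 and 7. Of the 32851 RefSeq promoters of the same length, 5.56% hold the NF-kappa-B letters, 3.44% the interferon-stimulated letters, 8.3% the STAT letters, 40.7% the C/EBP letters and 25.6% the RBPJ letters. These are matches of letters and say nothing about binding.

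**Figure D2:**
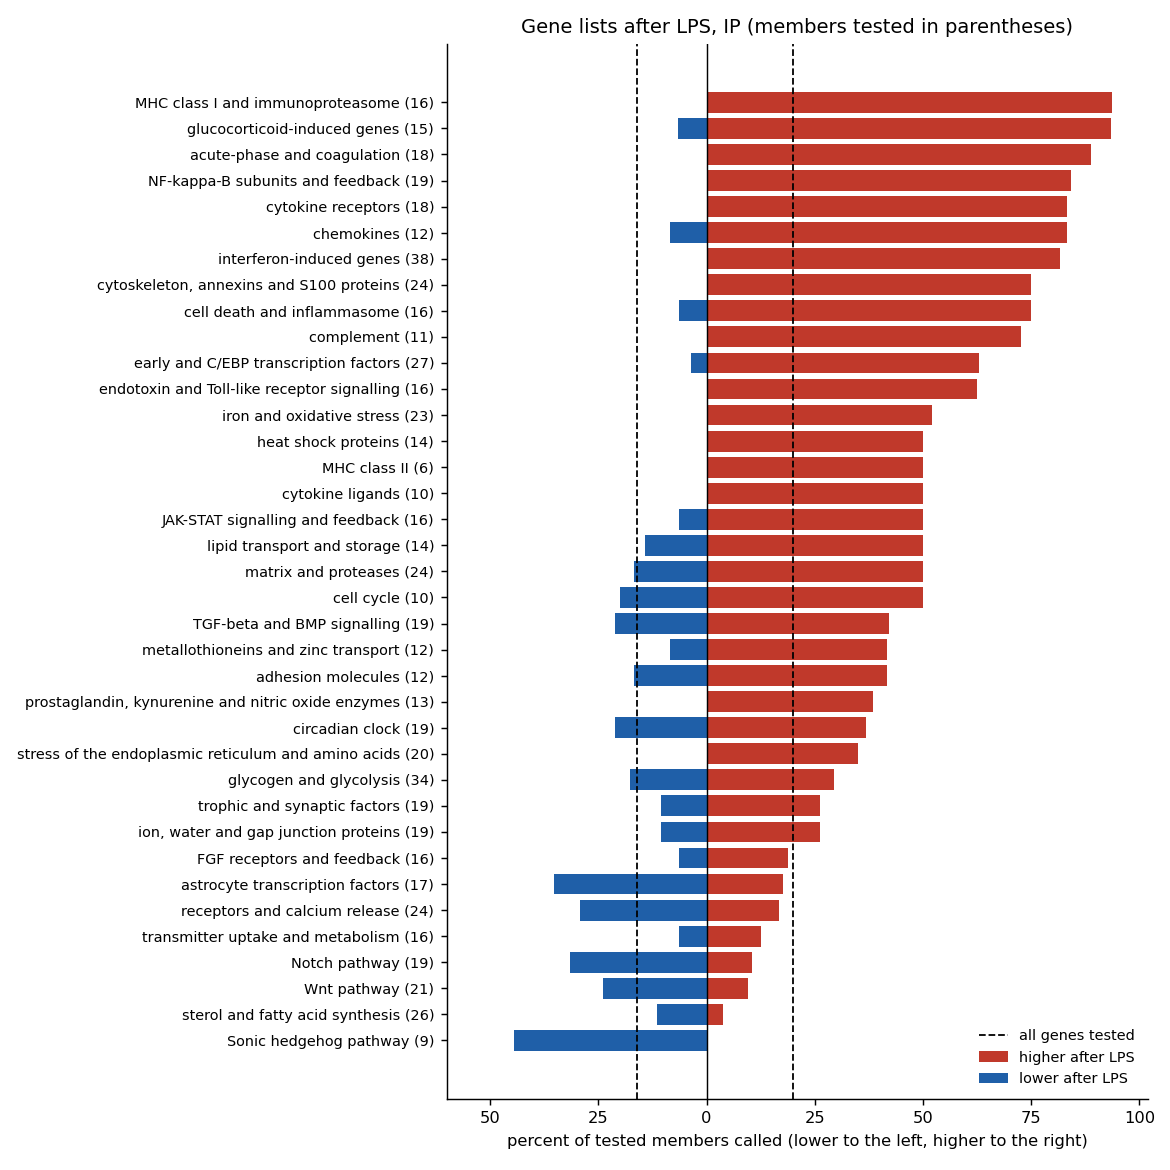
Share of the tested members that rose (red, to the right) or fell (blue, to the left) after LPS, all 8 libraries, in each response list with at least 5 tested members (number tested in parentheses; cell type marker lists not drawn). Dashed lines mark the shares over all genes, 19.9% higher and 16.1% lower; inflammatory lists lie far to the right, and the Sonic hedgehog, astrocyte transcription factor, Notch and receptor lists lie beyond the lower dashed line by the widest margins of the lists drawn.

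The receptors and adaptors that read LPS rose in part. Of 16 tested members of endotoxin and Toll-like receptor signalling, 10 rose and 0 fell (median log2 change 0.79). The counts were 11 and 2 without LPS replicate 2. Without any 1 of the 7 other libraries 5 to 6 rose, in fits where 1432 to 1878 of all 13641 genes rose. Tlr4 itself was low, at 0.748, 0.745, 0.924 and 0.968 FPKM in vehicle and 1.11, 1.87, 1.08 and 1.17 FPKM in LPS mice, and was highest in replicate 2. Its log2 change was 0.69 ± 0.17 (limma adjusted p = 0.0164) and 0.57 without replicate 2, and the call was lost without vehicle replicate 1 or 2 (highest adjusted p = 0.0508). Ly96 did not pass the test (log2 -0.40 ± 0.29, adjusted p = 0.289), and Cd14 was under the minimum for testing, at 0.110 to 0.243 FPKM in vehicle mice, 0.409 FPKM in LPS replicate 2 and up to 5.68 FPKM in the other LPS mice. Tlr2 stood at 1.30, 0.737, 1.17 and 1.89 FPKM in vehicle and 97.1, 6.75, 52.0 and 61.0 FPKM in LPS mice, a log2 change of 5.02 ± 0.78 (adjusted p = 0.00380). Myd88, the adaptor shared by most Toll-like receptors, rose by 2.46 ± 0.41 (2.92 without replicate 2), and Irak3, which restrains the same pathway, by 2.18 ± 0.49 (2.73). Tlr3, a receptor for double-stranded RNA, and the kinase Irak2 were called (log2 1.42 ± 0.41 and 1.39 ± 0.44) although replicate 2, at 15.6 and 11.9 FPKM, lay within the vehicle range of Tlr3 (12.9 to 19.7 FPKM) and under that of Irak2 (12.8 to 14.5 FPKM). Both calls were lost without any 1 of the 7 other libraries (highest adjusted p = 0.0828 and 0.101).

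Receptors for cytokines rose more widely, 15 of 18 tested with 0 lower and a median of 1.31, and 16 higher and 1 lower without LPS replicate 2. Osmr, the receptor of oncostatin M, stood at 7.58, 5.44, 7.45 and 11.6 FPKM in vehicle and 76.4, 28.4, 63.4 and 45.1 FPKM in LPS mice, without overlap, for a log2 change of 2.83 ± 0.36 (limma adjusted p = 0.00171) and 3.16 without replicate 2. Il13ra1, the interleukin-13 receptor chain, rose by 2.95 ± 0.49 and Il17ra, the interleukin-17 receptor, by 2.57 ± 0.51, and replicate 2 was at 7.15 and 8.59 FPKM against 29.3 to 31.8 and 40.0 to 41.5 FPKM in the other LPS mice. The TNF receptor Tnfrsf1a rose by 1.67 ± 0.23 and the interleukin-1 receptor Il1r1 by 1.63 ± 0.30 (1.89 and 1.96 without replicate 2). Lifr, the receptor of leukaemia inhibitory factor, did not pass (log2 -0.050 ± 0.15, adjusted p = 0.811), nor did the interferon-gamma receptor chain Ifngr2 (log2 0.14 ± 0.092, adjusted p = 0.239).

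Of 16 tested members of JAK-STAT signalling and feedback, 8 rose and 1 fell, 11 and 3 without LPS replicate 2, and 5 to 7 rose without any 1 of the other libraries, the lowest without LPS replicate 3, while 0 fell. Socs3, which blocks cytokine receptors of the interleukin-6 family, stood at 1.48, 1.147, 1.43 and 3.51 FPKM in vehicle and 41.7, 5.31, 64.7 and 48.4 FPKM in LPS mice. The groups did not overlap, with vehicle replicate 4 and LPS replicate 2 closest to each other, and the log2 change was 4.15 ± 0.78 (limma adjusted p = 0.00741) and 5.01 without replicate 2. Stat3, the main carrier of interleukin-6 signals, rose by 1.80 ± 0.29 (36.8 to 49.96 FPKM in vehicle, 74.6 to 181 FPKM in LPS mice), the kinase Pim1 by 3.44 ± 0.65 and Stat5a by 1.62 ± 0.33. Stat2, which takes part in interferon signalling, did not pass (log2 0.17 ± 0.22, adjusted p = 0.548).

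NF-kappa-B subunits and feedback genes rose in 16 of 19 tested and fell in 0, with a median of 1.84 (16, 0 and 2.35 without LPS replicate 2). Nfkbia, the inhibitor that holds NF-kappa-B in the cytoplasm and that NF-kappa-B induces, stood at 32.2, 23.2, 19.5 and 27.1 FPKM in vehicle and 212, 44.7, 258 and 270.0 FPKM in LPS mice. LPS replicate 2 lay just above the vehicle mice and the others several times higher, and the log2 change was 2.83 ± 0.57 (limma adjusted p = 0.00973) and 3.50 without it. The related inhibitors Nfkbie and Nfkbiz rose by 3.62 ± 0.75 and 3.55 ± 0.51, the subunit Relb by 2.84 ± 0.57 and the deubiquitinase Tnfaip3 (A20) by 2.76 ± 0.64. The kinase subunits Chuk, Ikbkb and Ikbkg did not pass, with log2 changes of 0.037, -0.0039 and 0.030.

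Chemokines made up the list with the second largest median among lists with at least 5 tested members. Of 21 listed, 12 were tested, 10 rose and 1 fell (median log2 change 2.90), and the same counts held without LPS replicate 2. Cxcl10, which draws activated T cells, stood at 31.7, 15.6, 24.8 and 67.4 FPKM in vehicle and at 2309, 71.7, 1765 and 1824 FPKM in LPS mice. The groups did not overlap, but replicate 2 lay just above vehicle replicate 4, and the log2 change was 4.98 ± 1.10 (limma adjusted p = 0.0128) and 6.23 without it. Cxcl9, a ligand of the same receptor, stood at 2.40, 1.41, 2.12 and 5.22 FPKM in vehicle and 33.5, 36.4, 21.2 and 32.5 FPKM in LPS mice, where replicate 2 was the highest (log2 3.71 ± 0.34, adjusted p = 0.000551). The neutrophil chemokine Cxcl1 rose by 4.70 ± 0.58 (0.305 to 0.730 FPKM in vehicle, 4.89 to 32.9 FPKM in LPS mice), and the monocyte chemokine Ccl7 by 3.04 ± 0.65. Cxcl14, a chemokine abundant in unstimulated striatal IP, did not pass, at 98.4 to 121 FPKM in vehicle and 96.2 to 108 FPKM in LPS mice (log2 0.062 ± 0.10, adjusted p = 0.637).

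Cytokine ligands were mostly low. Of 20 listed, 10 were tested, of which 5 rose and 0 fell, against 8 and 1 without LPS replicate 2 and 2 to 3 higher without any 1 of the 7 other libraries. Clcf1, a ligand of the interleukin-6 family, stood at 0.257, 0.212, 0.202 and 0.361 FPKM in vehicle and 1.96, 1.10, 4.02 and 1.84 FPKM in LPS mice. The groups did not overlap, and the gene rose by 2.71 ± 0.38 (limma adjusted p = 0.00256). Il6 stood at 0.676, 0.359, 0.570 and 1.34 FPKM in vehicle and 1.38, 1.51, 4.40 and 2.38 FPKM in LPS mice, a log2 change of 1.72 ± 0.44 (adjusted p = 0.0207) and 1.93 without replicate 2. Leukaemia inhibitory factor (Lif) rose by 2.20 ± 0.58 and Csf1, a growth factor of microglia, by 1.49 ± 0.30. The call of Lif was lost without any 1 of the 7 libraries other than LPS replicate 2 (highest adjusted p = 0.0632), and that of Il6 without LPS replicate 3 or 4 or vehicle replicate 1, 2 or 3 (0.0576). Tnf, Il1a and Il1b stayed under the minimum for testing, at up to 0.110, 0.106 and 0.0623 FPKM in vehicle mice and up to 1.85, 1.34 and 0.142 FPKM in LPS mice.

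Acute-phase and coagulation genes had the largest median of any list with at least 5 tested members, 3.25, with 16 of 18 higher and 0 lower (17 and 0 without LPS replicate 2). Besides Lcn2, Ptx3, Serpina3m and Fga, Saa3, a serum amyloid made outside the liver, stood at 0.119, 0.327, 0.156 and 0.171 FPKM in vehicle and 8.66, 6.80, 6.92 and 4.34 FPKM in LPS mice and rose by 4.67 ± 0.26 (limma adjusted p = 6.10e-05) and 4.69 without replicate 2. Its LPS mice lay close together. Haptoglobin (Hp) did not pass, at 0.371 to 0.656 FPKM in vehicle and 0.397 to 1.16 FPKM in LPS mice (log2 0.79 ± 0.31, adjusted p = 0.0727). Complement genes rose in 8 of 11 tested with 0 lower and a median of 1.84, and 10 rose without replicate 2. C3, the central component of the cascade, stood at 5.42, 3.15, 9.27 and 7.21 FPKM in vehicle and 41.3, 40.0, 24.96 and 20.8 FPKM in LPS mice. The groups did not overlap and replicate 2 was the second highest of the LPS mice, for a log2 change of 2.53 ± 0.33 (adjusted p = 0.00212) and 2.45 without it. The proteases of the first component C1ra and C1s1 rose by 2.54 ± 0.30 and 1.88 ± 0.28, C2 by 1.91 ± 0.33 and factor B (Cfb) by 3.34 ± 0.59, while the membrane regulators Cd55 and Cd59a did not pass (log2 0.036 ± 0.12 and 0.44 ± 0.18).

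Enzymes that make small mediators were called in part. Of 13 tested genes of prostaglandin, kynurenine, polyamine and nitric oxide enzymes, 5 rose and 0 fell. Ptges, the inducible prostaglandin E synthase, stood at 2.42, 2.41, 2.65 and 2.73 FPKM in vehicle and 27.5, 9.20, 17.5 and 13.8 FPKM in LPS mice. Vehicle and LPS mice were apart, and it rose by 2.74 ± 0.32 (limma adjusted p = 0.00130; 3.04 without LPS replicate 2). Ptgds, the prostaglandin D synthase, rose by 1.19 ± 0.26 and was highest in replicate 2, at 632 FPKM against 268 to 287 FPKM in the other LPS mice. The ornithine decarboxylase Odc1 rose by 1.30 ± 0.20, while the cyclooxygenase Ptgs1 did not pass (log2 -0.36 ± 0.13, adjusted p = 0.0649).

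Genes of MHC class I, which present peptides to T cells, rose almost throughout. Of 16 tested class I and immunoproteasome genes, 15 rose and 0 fell (median 1.30; 16 higher and a median of 1.38 without LPS replicate 2). H2-D1, a classical class I chain, stood at 191, 141, 222 and 243 FPKM in vehicle and 561, 447, 504.3 and 510.1 FPKM in LPS mice. All LPS mice lay above all vehicle mice, replicate 2 the lowest of them, with a log2 change of 1.53 ± 0.18 (limma adjusted p = 0.00130) and 1.64 without it. H2-Q4 rose by 2.67 ± 0.29, the loading chaperone Tapbp by 1.62 ± 0.21 and the immunoproteasome subunit Psmb8 by 1.49 ± 0.24, while Psmb9 did not pass (log2 0.88 ± 0.32, adjusted p = 0.0570). Class I genes are near-identical copies, and how reads shared between them were counted is not given in the sources used here. Of 6 class II genes tested, 3 rose with all libraries and 6 without replicate 2. Cd74, the class II invariant chain, stood at 24.7, 17.8, 47.5 and 23.7 FPKM in vehicle and 107, 45.9, 90.7 and 99.9 FPKM in LPS mice, where replicate 2 overlapped vehicle (log2 1.78 ± 0.37, adjusted p = 0.0109; 2.11 without it). In 20 control mice of the other experiments Cd74 was lower in IP than in input (log2 -1.36).

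Calls of interferon-induced genes varied with the libraries used, as did those of all genes. Of 38 tested, 31 rose and 0 fell, with a median of 1.64, and 34 rose with a median of 2.03 without LPS replicate 2. Between 9 and 14 rose without LPS replicate 1, 3 or 4 or vehicle replicate 1, 2 or 3, and 35 without vehicle replicate 4. Of all 13641 genes, 1432 to 1878 rose in the former fits and 1810 without vehicle replicate 4, against 2720 with all libraries. Rsad2 (viperin), an antiviral enzyme, stood at 7.50, 3.51, 5.44 and 12.9 FPKM in vehicle and 278, 9.77, 225 and 166 FPKM in LPS mice. LPS replicate 2 lay below vehicle replicate 4, which was the highest of the vehicle mice, and the log2 change was 4.07 ± 1.03 (limma adjusted p = 0.0193) and 5.24 without replicate 2. That call was lost without LPS replicate 1, 3 or 4 or vehicle replicate 2 or 3 (highest adjusted p = 0.0590). The guanylate-binding protein Gbp5 stood at 21.8, 11.1, 19.9 and 38.3 FPKM in vehicle and 457, 75.2, 306 and 330.0 FPKM in LPS mice. No LPS value overlapped vehicle, and the gene rose by 3.70 ± 0.60 (adjusted p = 0.00458). The antiviral GTPase Mx1 rose by 3.53 ± 0.81 and Ifit2, which restrains the translation of viral RNA, by 2.94 ± 0.71 (4.34 and 3.68 without replicate 2), and the call of Ifit2 was lost without LPS replicate 3 or 4 or vehicle replicate 2 (0.0528). Ifit3 (log2 1.19 ± 0.49, adjusted p = 0.0857), Bst2 (log2 0.68 ± 0.27, 0.0725) and Oasl2 (log2 0.66 ± 0.30, 0.113) were abundant in vehicle mice and did not pass.

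Genes of cell death also rose. Of 16 tested members of cell death and inflammasome, 12 rose and 1 fell (13 and 1 without LPS replicate 2). The other 4 listed, Ripk3, Nlrp3, Aim2 and Pycard, were under the minimum for testing, at up to 0.474 FPKM in any mouse. Casp4, the caspase that binds LPS in the cytoplasm, stood at 0.543, 0.394, 0.707 and 1.38 FPKM in vehicle and 15.4, 2.87, 8.25 and 6.77 FPKM in LPS mice. Both groups were separate, and its level rose by 3.34 ± 0.53 (limma adjusted p = 0.00426; 3.81 without replicate 2). The pore-forming substrate of that caspase, Gsdmd, rose by 2.39 ± 0.25, the necroptosis effector Mlkl by 2.67 ± 0.49, the death receptor Fas by 2.59 ± 0.45 and Casp8 by 1.91 ± 0.43, while Bax, which opens mitochondria, did not pass (log2 0.066 ± 0.062, adjusted p = 0.416).

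Transcription factors of the early and C/EBP families rose in 17 of 27 tested with 1 lower, 20 and 3 without LPS replicate 2, and 11 to 16 rose without any 1 of the other libraries, the lowest without LPS replicate 3 or 4. Cebpd, which drives acute-phase genes, stood at 12.01, 7.77, 8.71 and 16.4 FPKM in vehicle and 96.0, 29.6, 107 and 129.9 FPKM in LPS mice. LPS mice lay above vehicle mice throughout, and the log2 change was 3.03 ± 0.49 (limma adjusted p = 0.00431) and 3.56 without replicate 2. The small Maf factors Maff and Mafk rose by 4.11 ± 0.62 and 2.78 ± 0.47, and Klf2, known best from endothelium, by 2.79 ± 0.57 at 1.18 to 8.41 FPKM. The neuronal activity genes Egr1 and Nr4a1 did not pass (log2 0.30 ± 0.21 and 0.040 ± 0.24).

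Genes induced by glucocorticoids rose together, 14 of 15 with 1 lower and a median of 1.64, and the counts were the same without LPS replicate 2. Fkbp5, a chaperone that restrains the glucocorticoid receptor, stood at 8.45, 7.30, 7.18 and 7.45 FPKM in vehicle and at 42.4, 34.05, 43.9 and 43.3 FPKM in LPS mice. Replicate 2 lay well above every vehicle mouse, and the log2 change was 2.57 ± 0.13 (limma adjusted p = 3.92e-05) and 2.71 without it. The lipid droplet protein Plin4 rose by 4.57 ± 0.21 and was highest in replicate 2, at 31.0 FPKM against 14.9 to 18.4 FPKM in the other LPS mice. Map3k6 rose by 4.92 ± 0.30, the zinc-finger factor Zbtb16 by 2.53 ± 0.26 and the cell-cycle inhibitor Cdkn1a by 2.35 ± 0.34.

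Clock genes moved in both directions, 7 of 19 higher and 4 lower, with 12 and 4 without LPS replicate 2 and 2 to 3 higher without any 1 of the 7 other libraries. Dbp, an output gene of the clock, stood at 151, 146, 134 and 129 FPKM in vehicle and 45.99, 72.0, 38.9 and 45.4 FPKM in LPS mice, all LPS mice below all vehicle mice, and fell with a log2 change of -1.34 ± 0.13 (limma adjusted p = 0.000651; -1.47 without replicate 2). Per1, a clock gene that glucocorticoids and cAMP also induce, stood at 17.9, 16.4, 13.9 and 15.7 FPKM in vehicle and 53.4, 16.8, 65.4 and 70.4 FPKM in LPS mice. Replicate 2 lay among the vehicle mice, and the log2 change of 1.66 ± 0.45 (adjusted p = 0.0235) was 2.18 without it and lost its call without any 1 of the 7 other libraries (highest adjusted p = 0.0693). Nfil3, a repressor of Dbp targets, rose by 2.84 ± 0.59, with replicate 2 at 3.99 FPKM against 23.9 to 24.7 FPKM in the other LPS mice.

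Metal and redox genes followed. Mt1 and Mt2, the metallothioneins that bind zinc and copper, stood in vehicle mice at 840.0, 778, 757 and 622 FPKM and at 281, 255, 241 and 196 FPKM. In LPS mice they reached 4180.0, 3299, 4433 and 3943 FPKM and 2597, 671, 2888 and 2703 FPKM, so that replicate 2 shared most of the rise of Mt1 and less of that of Mt2. Their log2 changes were 2.56 ± 0.15 and 3.15 ± 0.48 (limma adjusted p = 8.26e-05 and 0.00342), and 2.70 and 3.71 without replicate 2. Mt3, the brain form, did not pass (log2 0.11 ± 0.13, adjusted p = 0.516). Of the 12 metallothionein and zinc transport genes, 5 rose and 1 fell, among them the zinc importers Slc39a14 (log2 2.15 ± 0.27) and Slc39a1 (1.20 ± 0.13) and, lower, the manganese exporter Slc30a10 (-1.60 ± 0.21). In the list of iron and oxidative stress, 12 of 23 rose and 0 fell, and 7 rose without LPS replicate 3 or vehicle replicate 1. Gpx1, a glutathione peroxidase, rose by 1.39 ± 0.10 (44.6 to 50.8 FPKM in vehicle, 96.5 to 130.4 FPKM in LPS mice), and the thioredoxin reductase Txnrd1 by 1.14 ± 0.26. Haem oxygenase 1 (Hmox1) stood at 38.0, 31.3, 27.97 and 43.7 FPKM in vehicle and 259, 38.0, 312.1 and 110.3 FPKM in LPS mice, with replicate 2 among the vehicle mice, and its call (log2 2.13 ± 0.63, adjusted p = 0.0314) was lost without any 1 of the 7 other libraries (highest adjusted p = 0.0816).

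Notch and hedgehog signalling act between neighbouring cells and are used by adult astrocytes. Of 19 tested Notch pathway genes, 6 fell and 2 rose (median -0.30), and without LPS replicate 2 10 fell and 5 rose, against backgrounds of 29.7% and 31.9%, while 0 or 1 rose without LPS replicate 3 or 4 or any 1 vehicle library. Besides Hes5 and Nrarp, the target Hey1 stood at 46.6, 48.2, 50.1 and 51.3 FPKM in vehicle and 21.4, 40.4, 23.8 and 29.7 FPKM in LPS mice. The groups did not overlap, and the gene fell with a log2 change of -0.65 ± 0.14 (limma adjusted p = 0.0111). The ligand Jag1 fell (-0.82 ± 0.16), while Rbpj, the factor through which Notch acts, rose (0.89 ± 0.23), a call lost without LPS replicate 3 or 4 or vehicle replicate 1 or 2 (highest adjusted p = 0.0582). The receptor Notch1 (log2 -0.057 ± 0.15, adjusted p = 0.775) and the ligand Dner (log2 0.10 ± 0.089, 0.382) did not pass, and Lfng, which sugars Notch, stood at 41.3 FPKM in replicate 2 and 9.52 to 11.8 FPKM in the other LPS mice against 25.9 to 33.4 FPKM in vehicle (log2 -0.80 ± 0.37, adjusted p = 0.118; -1.24 and 3.80e-05 without replicate 2).

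Of 9 Sonic hedgehog genes tested, 4 fell and 0 rose, 6 and 0 without LPS replicate 2, and 2 fell without LPS replicate 3 or vehicle replicate 2 or 3. Gli3, the main repressor of the pathway, stood at 9.57, 9.66, 10.5 and 9.18 FPKM in vehicle and 4.96, 7.55, 6.55 and 5.19 FPKM in LPS mice. Vehicle and LPS mice were apart, and it fell with a log2 change of -0.53 ± 0.11 (limma adjusted p = 0.0107; -0.59 without replicate 2). The hedgehog-binding protein Hhip fell by less (-0.26 ± 0.057). Ptch1, the hedgehog receptor, was at 21.3, 21.6, 20.8 and 20.8 FPKM in vehicle and 9.91, 26.9, 11.3 and 10.3 FPKM in LPS mice, and replicate 2 lay above vehicle while the other LPS mice lay below (log2 -0.51 ± 0.24, adjusted p = 0.128; -0.79 and 9.70e-06 without it).

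Fgf2, a growth factor that astrocytes make, stood at 6.23, 6.15, 5.17 and 6.80 FPKM in vehicle and 38.6, 24.5, 33.1 and 30.7 FPKM in LPS mice. No LPS value overlapped vehicle, and the gene rose by 2.51 ± 0.17 (limma adjusted p = 0.000182; 2.68 without LPS replicate 2). Of the 16 genes of FGF receptors and feedback, 3 rose and 1 fell (4 and 4 without replicate 2), with the receptor Fgfr2 lower (-0.95 ± 0.21) and Fgfr3, the most abundant receptor, not passing (log2 0.015 ± 0.11, adjusted p = 0.925). In the Wnt pathway 5 of 21 fell and 2 rose, 10 and 3 without replicate 2 and 2 to 4 lower without any 1 of the 7 other libraries. The receptors Fzd2 and Fzd10 fell (-1.39 ± 0.22 and -1.57 ± 0.38), as did the ligand Wnt7a (-1.10 ± 0.25), and the call of Fzd10 was lost without LPS replicate 3 (adjusted p = 0.0525). Of 19 TGF-beta and BMP genes, 8 rose and 4 fell, 11 and 6 without replicate 2. Between 3 and 5 rose without LPS replicate 1, 3 or 4 or vehicle replicate 1, 2 or 3, and 2 fell without LPS replicate 3 or vehicle replicate 1, 3 or 4. Id3 stood at 100.7, 84.1, 100.7 and 98.5 FPKM in vehicle and 329, 143, 309 and 330.5 FPKM in LPS mice. Both groups were separate, and its level rose by 1.62 ± 0.30 (adjusted p = 0.00676), and Id1, another BMP-induced inhibitor of helix-loop-helix factors, rose by 1.52 ± 0.22.

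Transcription factors of astrocyte identity fell more often than they rose. Of 17 tested, 6 fell and 3 rose, 8 and 6 without LPS replicate 2. Id4, which is not counted in this list, belongs to the same protein family as Id1 and Id3 but went the other way. It stood at 179, 158, 179 and 152 FPKM in vehicle and 42.3, 125, 49.8 and 43.8 FPKM in LPS mice, for a log2 change of -1.35 ± 0.27 (limma adjusted p = 0.00954, and -1.67 without replicate 2). Replicate 2 lay between the groups. Within the list, Sox8 fell (-1.60 ± 0.35), as did the nuclear receptor Rorb (-0.53 ± 0.091) and the homeobox factor Lhx2 (-0.70 ± 0.12), while Sox9, which helps specify astrocytes, rose (0.60 ± 0.14) and Sox2 did not pass (log2 -0.33 ± 0.23, adjusted p = 0.269; -0.59 and 0.000221 without replicate 2).

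**Figure D3:**
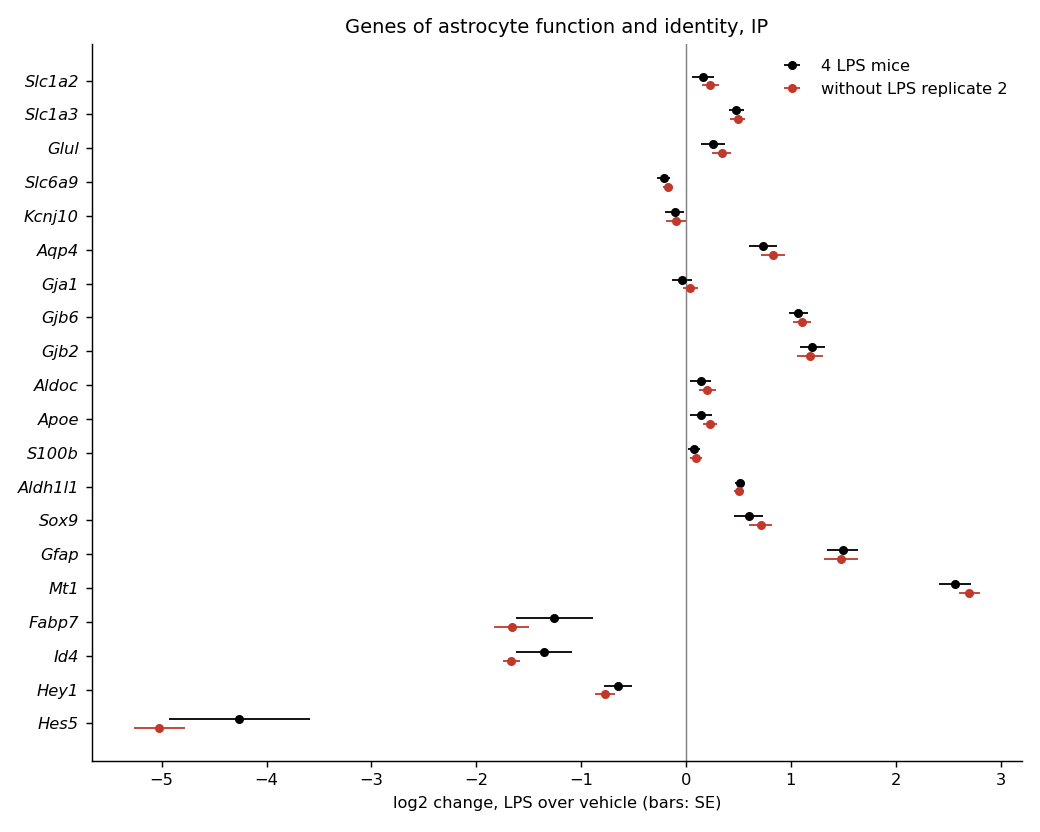
Log2 change after LPS of 20 genes of astrocyte function and identity, with standard error, for all 4 LPS mice (black) and without LPS replicate 2 (red). Slc1a2, Kcnj10 and Gja1 lie near 0, Gfap, Mt1, Gjb2 and Gjb6 lie to the right, and Hes5, Id4 and Fabp7 lie to the left.

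Of 16 genes of transmitter uptake and metabolism, 2 rose and 1 fell (6 and 1 without LPS replicate 2). Without scaling between libraries 1 rose and 6 fell, in a fit where 4022 of all 13641 genes fell against 2199 with scaling. Without any 1 of the 7 libraries other than replicate 2, 1 to 2 rose and 0 to 1 fell. Slc1a2 (GLT-1), the main glutamate transporter, stood at 1742, 1920.1, 1889 and 1722 FPKM in vehicle and 1659, 1752, 2031 and 1845 FPKM in LPS mice, and the groups overlapped (log2 0.16 ± 0.10, limma adjusted p = 0.234; 0.23 and 0.0356 without replicate 2). Slc1a3 (GLAST) rose by 0.48 ± 0.071 (adjusted p = 0.00318; 623 to 706 FPKM in vehicle, 752 to 904 FPKM in LPS mice). Glutamine synthetase (Glul) did not pass (log2 0.26 ± 0.12, adjusted p = 0.105; 0.34 and 0.0121 without replicate 2). The glycine transporter Slc6a9 fell (-0.21 ± 0.065). Its call was lost without LPS replicate 1 or 3 or any 1 vehicle library (highest adjusted p = 0.0886).

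Among 19 ion, water and gap junction genes, 5 rose and 2 fell (8 and 3 without LPS replicate 2). The potassium channel Kcnj10 (Kir4.1) did not pass, at 77.6 to 85.1 FPKM in vehicle and 55.1 to 75.0 FPKM in LPS mice (log2 -0.11 ± 0.090, limma adjusted p = 0.366), nor did the connexin Gja1 (log2 -0.037 ± 0.10, adjusted p = 0.774). For Kcnj10 all LPS mice lay below all vehicle mice in deposited FPKM, and its log2 change ran from -0.27 to -0.028 across the alternative settings. The water channel Aqp4 stood at 164, 165, 184 and 215 FPKM in vehicle and 322, 248, 254 and 263 FPKM in LPS mice, all LPS mice above all vehicle mice, and rose by 0.74 ± 0.13 (adjusted p = 0.00637; 0.83 without replicate 2). The connexins Gjb6 and Gjb2 rose by 1.07 ± 0.089 and 1.20 ± 0.12, with replicate 2 among the other LPS mice. The carbonic anhydrase Car2 fell (-0.77 ± 0.11). Of 24 receptor and calcium release genes, 4 rose and 7 fell, against 7 and 7 without LPS replicate 2 and 2 and 9 without scaling. With any 1 of the other libraries left out, 2 to 3 rose and 3 to 6 fell. The largest member change was of S1pr3, a sphingosine phosphate receptor, at 3.73, 2.16, 4.12 and 7.46 FPKM in vehicle and 49.1, 9.13, 37.9 and 28.7 FPKM in LPS mice (log2 2.86 ± 0.57, adjusted p = 0.00936), whereas the more abundant S1pr1 did not pass (log2 -0.17 ± 0.18, adjusted p = 0.473). The endothelin receptor Ednra fell (-0.82 ± 0.13) and the thrombin receptor F2r rose (0.75 ± 0.10).

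Energy metabolism was mixed. Of 34 glycogen, glycolysis and lactate genes, 10 rose and 6 fell (13 and 7 without LPS replicate 2), a balance that turned to 7 higher and 12 lower without scaling between libraries. Calls of all 13641 genes shifted in the same direction, to 1833 higher and 4022 lower. Hexokinase 2 (Hk2), the inducible first enzyme of glycolysis, stood at 0.759, 0.614, 0.641 and 1.07 FPKM in vehicle and 5.42, 2.03, 6.503 and 6.18 FPKM in LPS mice. The groups did not overlap, and the gene rose by 2.61 ± 0.40 (limma adjusted p = 0.00344; 3.04 without replicate 2). The lactate transporter Slc16a1 rose by 1.91 ± 0.26 and Txnip, which restrains glucose uptake, by 1.81 ± 0.39. Ppp1r3g, which targets a phosphatase to glycogen, stood at 18.04, 21.5, 15.9 and 14.3 FPKM in vehicle and 4.03, 7.204, 3.96 and 4.28 FPKM in LPS mice and fell with a log2 change of -1.69 ± 0.17 (adjusted p = 0.000740), and all LPS mice lay below all vehicle mice. The abundant glycolytic enzymes Aldoc and Aldoa did not pass (log2 0.14 ± 0.10 and 0.086 ± 0.070).

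Sterol and fatty acid synthesis showed few calls, 1 higher and 3 lower of 26, but 0 higher and 10 lower without scaling between libraries, 5 and 6 without LPS replicate 2, and 0 and 1 to 3 without any 1 of the other libraries. Without scaling the calls of all 13641 genes also shifted, to 1833 higher and 4022 lower. Mvd of the mevalonate pathway stood at 15.4, 18.2, 17.5 and 19.3 FPKM in vehicle and 7.16, 9.33, 8.95 and 10.3 FPKM in LPS mice. Vehicle and LPS mice were apart, and it fell with a log2 change of -0.82 ± 0.12 (limma adjusted p = 0.00285), while Scd2 and Acly, which act in fatty acid synthesis, did not pass (log2 0.085 ± 0.082 and 0.029 ± 0.089). Of 14 lipid transport and storage genes, 7 rose and 2 fell, or 4 and 4 without scaling and 4 to 5 and 0 to 1 without any 1 of the 7 libraries other than replicate 2. The lipocalin Apod stood at 177, 77.8, 198 and 435 FPKM in vehicle and 839.6, 1811, 1044 and 647 FPKM in LPS mice, highest in replicate 2, and rose by 2.60 ± 0.48 (adjusted p = 0.00717). Fabp7, a fatty acid binding protein of radial glia and astrocytes, was at 26.4 FPKM in replicate 2, within the vehicle range of 23.7 to 31.9 FPKM, and at 6.06 to 10.04 FPKM in the other LPS mice. Its call (log2 -1.25 ± 0.37, adjusted p = 0.0315) was lost without any 1 of the 7 other libraries (highest adjusted p = 0.0868). Apoe, the most abundant of the list, did not pass, at 4985 to 5598 FPKM in vehicle and 4955 to 5685 FPKM in LPS mice (log2 0.14 ± 0.11, adjusted p = 0.314).

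Structural genes rose widely. Of 24 cytoskeletal, annexin and S100 genes, 18 rose and 0 fell with a median of 1.35, and the counts were 18 and 0 without LPS replicate 2. Gfap, the astrocyte filament protein, stood at 459, 358, 505.99 and 621 FPKM in vehicle and 1192, 1386, 1083 and 1160.0 FPKM in LPS mice. Every LPS mouse lay above every vehicle mouse and replicate 2 was the highest, with a log2 change of 1.49 ± 0.15 (limma adjusted p = 0.000692) and 1.48 without it. The actin crosslinker Flnc rose by 3.13 ± 0.56, Anxa1 and Anxa2, which bind membranes, by 2.51 ± 0.42 and 1.91 ± 0.38, and S100a11 by 2.03 ± 0.32, while S100b did not pass (log2 0.075 ± 0.060, adjusted p = 0.339). In the matrix and protease list 12 of 24 rose and 4 fell, and 1 or 2 fell without LPS replicate 1 or 3 or any 1 vehicle library. Timp1, an inhibitor of metalloproteases, stood at 4.77, 2.80, 3.25 and 11.5 FPKM in vehicle and 131, 129.8, 87.3 and 64.9 FPKM in LPS mice. No LPS value overlapped vehicle, and the gene rose by 4.52 ± 0.42 (adjusted p = 0.000551; 4.44 without replicate 2). Cd109, a membrane protease inhibitor, rose by 2.84 ± 0.27, the protease Adamts1 by 3.33 ± 0.66 and the basement membrane collagen Col4a1 by 2.36 ± 0.40. Sparcl1 (hevin), which helps build synapses, did not pass at 1828 to 2193 FPKM in vehicle and 1672 to 1983 FPKM in LPS mice (log2 0.018 ± 0.11, adjusted p = 0.910).

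Adhesion molecules rose in 5 of 12 and fell in 2, with 8 and 2 without LPS replicate 2 and 1 lower without any 1 of the others. Icam1, to which leukocytes bind, stood at 10.8, 7.10, 9.21 and 12.7 FPKM in vehicle and 221, 29.7, 167 and 245 FPKM in LPS mice. Both groups were separate, and its level rose by 3.86 ± 0.65 (limma adjusted p = 0.00510; 4.62 without replicate 2). The hyaluronan receptor Cd44 rose by 2.24 ± 0.42, Vcam1 by 0.82 ± 0.20 and the integrin Itga7 by 1.26 ± 0.11, and Ncam1 and Nrcam, which join neural cells, did not pass (log2 0.18 ± 0.10 and 0.21 ± 0.090).

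**Figure D4:**
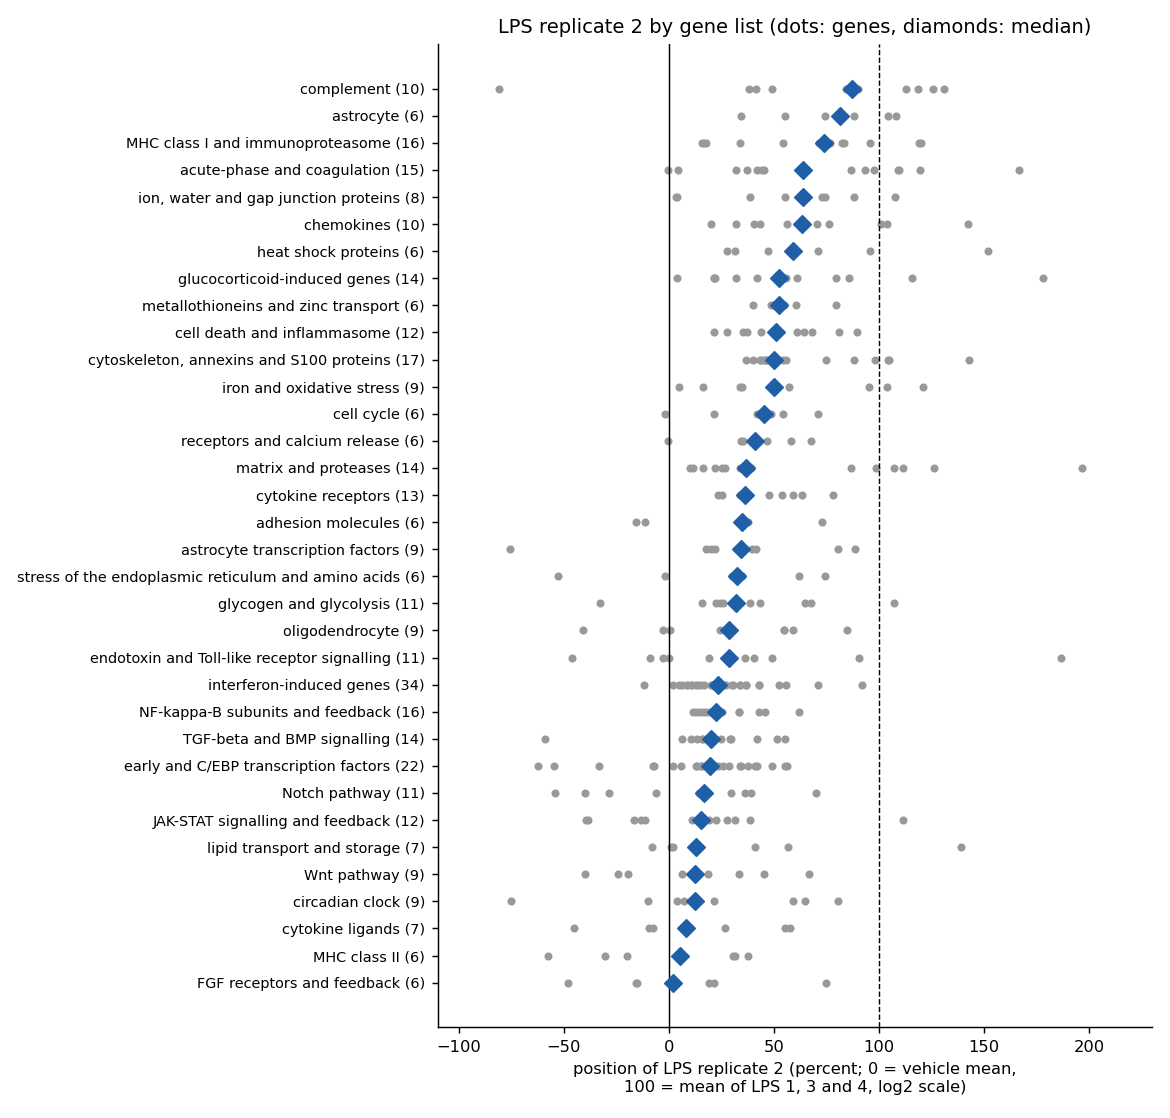
Position of LPS replicate 2, in percent of the log2 distance from the vehicle mean (0) to the mean of LPS replicates 1, 3 and 4 (100), for list members that were called and differed by at least 0.5 log2 units without replicate 2. Gene lists with few such members are not drawn. Grey dots are genes, with values beyond -100 or 220 drawn at those edges, blue diamonds are list medians, and the number of genes is in parentheses.

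Replicate 2 did not lie at 1 position for all lists. Among members that changed by at least 0.5 log2 units in the other LPS mice, its median position was 87.0% for 10 complement genes, 73.7% for 16 class I genes and 64.0% for 15 acute-phase genes. It was 23.3% for 34 interferon-induced genes, 22.5% for 16 NF-kappa-B genes, 15.2% for 12 JAK-STAT genes and 16.5% for 11 Notch genes. The median over all 4153 genes that met the same limits was 18.8%, and the interferon, NF-kappa-B, JAK-STAT and Notch lists lay near it. These positions describe 1 mouse, its dose and timing are labelled like the others, and no test compares the lists.

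**Figure D5:**
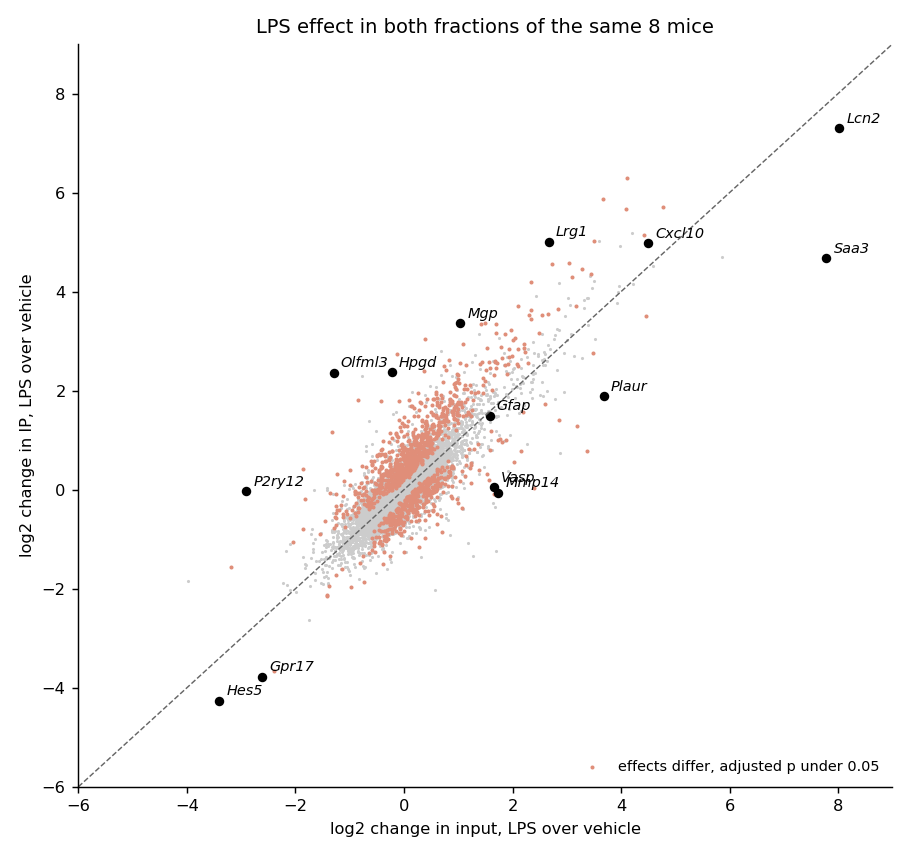
Log2 change after LPS in IP against that in input of the same mice for genes tested in both, with genes whose effects differed (adjusted p under 0.05) in orange and the line of equal change dashed. Lcn2, Cxcl10 and Gfap did not pass the test of the difference, Olfml3, Hpgd, Mgp, Lrg1 and P2ry12 lie above the line, and Saa3, Plaur, Vasp and Mmp14 lie below it.

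The whole striatal lysate of the same mice gave the tissue background. In input 4534 of 14511 genes changed (31.2%), 2403 higher (16.6%) and 2131 lower (14.7%), and 8745 (60.3%) without LPS replicate 2. Taking the difference between IP and input within each mouse, the LPS effect differed between fractions for 1252 of 13333 genes (9.39%), 856 higher in IP (6.42%) and 396 lower (2.97%). Those counts became 2605 and 2106 without LPS replicate 2, and 254 to 431 and 85 to 158 without any 1 of the other libraries. Without scaling between libraries they were 634 and 1122. Fkbp5 rose more in IP than in input (difference in log2 change 1.13, limma adjusted p = 0.000564), as did the cyclin Ccnd1 (1.66, 0.00269), the small heat shock protein Hspb1 (1.83, 0.00265) and Gpx1 (1.05, 0.00265). Lcn2 (input log2 8.02; difference -0.72, adjusted p = 0.189), Cxcl10 (4.50; 0.48, 0.0807) and Gfap (1.58; -0.083, 0.4995) did not pass this test, and Hes5 fell more in IP (input -3.41; difference -0.85, adjusted p = 0.0286).

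The largest differences among genes that averaged 2 FPKM or more in IP follow. Olfml3, a secreted protein known from microglia, was lower in IP than in input in the control mice (log2 -3.62). It stood at 1.59, 1.16, 1.51 and 2.98 FPKM in vehicle and 11.4, 9.04, 8.32 and 5.29 FPKM in LPS mice in IP, rising by 2.36 ± 0.30, while its input change was -1.30, a difference of 3.66 (limma adjusted p = 0.00131). P2ry12, a receptor of resting microglia, did not pass in IP (log2 -0.033 ± 0.16) and fell in input (-2.90; difference 2.87, adjusted p = 0.00214). The prostaglandin-degrading enzyme Hpgd (difference 2.60), the glycoprotein Lrg1 (2.35) and the matrix protein Mgp (2.32) rose more in IP. Saa3 rose more in input than in IP (7.78; difference -3.12, adjusted p = 0.00298), as did the urokinase receptor Plaur (3.68; -1.79), whose call in IP was lost without any 1 of the 7 libraries other than LPS replicate 2 (highest adjusted p = 0.0872), and the protease Mmp14 (1.73; -1.80) and the actin regulator Vasp (1.66; -1.60) rose in input and did not pass in IP. The call of the difference was lost for Lrg1 without LPS replicate 3 (adjusted p = 0.0518) and for Mmp14 without LPS replicate 3 or vehicle replicate 2 or 3 (highest 0.0566).

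Marker genes show what the IP held. Enrichment in IP over input was called at limma adjusted p under 0.05, with no fold limit. In the 20 control mice it was called for 20 of 20 astrocyte markers (median log2 2.62). A stricter limit of at least 2-fold was passed by 11.9% of all genes, a share that cannot be set against this count. The count alone therefore does not set these markers apart, and the median gives the size of their enrichment. The summed level of the astrocyte markers was 9736 to 11044 FPKM in vehicle and 11125 to 11910.3 FPKM in LPS mice. After LPS 7 of 20 rose and 0 fell, and 13 rose without LPS replicate 2. Of 1651 tested genes that were at least 2-fold higher in IP than in input in the control mice, 466 rose (28.2%) and 236 fell (14.3%), with a median of 0.065. Without LPS replicate 2, 640 rose and 404 fell. None of the 17 microglial markers was enriched in IP (median -4.76), and their sum was 31.7 to 37.4 FPKM in vehicle and 29.1 to 35.0 FPKM in LPS IP against 757 to 965 and 798 to 1110.1 FPKM in input. Of 11 tested 3 rose and 0 fell, with C1qa at 1.56 to 2.43 FPKM in vehicle and 2.97 to 3.81 FPKM in LPS mice (log2 0.92 ± 0.17, limma adjusted p = 0.00706), and the defining markers Tmem119, Cx3cr1 and Trem2 were each under 0.7 FPKM in all 8 libraries.

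All 14 leukocyte markers were under the minimum for testing, and their sum was 0.539 to 0.877 FPKM in vehicle and 1.31 to 2.06 FPKM in LPS mice. In vehicle mice S100a9, Cd3e, Ngp, Retnlg, Mmp8 and Cxcr2 were listed at 0, and S100a9 reached 0.157 to 0.543 FPKM in LPS mice. In input the leukocyte sum was 7.47 to 29.3 FPKM in vehicle and 32.5 to 49.5 FPKM in LPS mice. The part of these cells in the results above was not tested. Endothelial markers summed to 30.7 to 32.7 FPKM in vehicle and 39.8 to 53.2 FPKM in LPS mice, with 4 of 6 tested higher and 0 lower, or 2 higher without LPS replicate 1 or 3 or vehicle replicate 1, 2 or 3, and Pecam1, Cdh5 and Tek under 0.65 FPKM throughout. Mural markers summed to 28.5 to 32.5 FPKM in vehicle and 16.6 to 24.6 FPKM in LPS mice, with 3 of 5 lower and 1 higher, or 1 lower without LPS replicate 3 or vehicle replicate 1, 3 or 4. Vtn fell (-0.94 ± 0.10, limma adjusted p = 0.000934).

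Neuronal and oligodendrocyte RNA was also present in the IP. Markers of medium spiny neurons, the main striatal neurons, were depleted in IP in control mice (median log2 -1.24, 0 of 15 enriched), summed to 1787 to 2226 FPKM in vehicle and 1447 to 2032 FPKM in LPS mice, and fell in 7 of 15 with 0 higher (7 and 1 without LPS replicate 2), or in 3 without LPS replicate 3 or 4 or vehicle replicate 1, 3 or 4. The dopamine receptor Drd1a, as the files name it, stood at 65.1, 54.9, 61.2 and 60.3 FPKM in vehicle and 29.3, 51.3, 26.3 and 29.5 FPKM in LPS mice and fell (-0.71 ± 0.15, limma adjusted p = 0.0106), while Penk and Ppp1r1b did not pass (log2 0.019 ± 0.19 and 0.16 ± 0.12). Markers of striatal interneurons, by contrast, were enriched in IP (9 of 10, median log2 1.87), as were ciliary markers of ependymal cells (7 of 7, 1.62). These counts are of markers higher in IP at limma adjusted p under 0.05 with no fold limit. The share of all genes at that limit is not given, and 11.9% of all genes were higher by at least 2-fold. Among response lists, the limit was passed by 31 of 34 glycogen and glycolysis genes (median log2 0.58). It was passed by 11 of 27 early and C/EBP factors (-0.33). The marker counts alone therefore do not set these markers apart. After LPS 1 of 10 interneuron markers rose and 0 fell, 2 and 0 without LPS replicate 2, 0 to 1 and 0 to 1 without any 1 of the other libraries and 0 and 3 without scaling. The one called was the calcium-binding protein Pvalb (0.58 ± 0.17, limma adjusted p = 0.0296), at 13.1, 12.6, 11.7 and 13.5 FPKM in vehicle and 19.9, 24.9, 13.4 and 12.9 FPKM in LPS mice, groups that overlapped. Its call was lost without LPS replicate 1 or any 1 vehicle library. Sst, Npy and Nos1 did not pass (log2 0.076 ± 0.13, 0.017 ± 0.10 and -0.047 ± 0.13). No ependymal marker was called, with Foxj1 at 52.5 FPKM in LPS replicate 2 against 18.1 to 20.8 FPKM in the other LPS mice and 16.7 to 31.2 FPKM in vehicle. Oligodendrocyte markers summed to 1055 to 1779.6 FPKM in vehicle and 1431 to 2332 FPKM in LPS mice, with 5 of 12 higher and 2 lower. These counts were 8 and 2 without LPS replicate 2, 1 to 4 and 1 without any 1 of the other libraries, and 2 and 2 without scaling. The myelin protein Mobp rose (0.97 ± 0.18) and Ugt8a, which makes a myelin lipid, fell (-1.58 ± 0.25). Precursor markers summed to 108 to 119 FPKM in vehicle, to 127 FPKM in LPS replicate 2 and to 63.9 to 77.8 FPKM in the other LPS mice. With all libraries Gpr17 was the only one called of 8, but 4 fell without LPS replicate 2, 2 without vehicle replicate 2 and 3 without scaling.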

How the data were processed

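RNA was sequenced from anti-HA pull-downs (IP) and cleared lysates (input) of mouse striatum. Per the labels' protocols, a stranded kit with RiboZero Gold was used, while the molecule is labelled polyA RNA; which of these applies is not settled. The submitters' processing notes name STAR, HTSeq and mm10, with no versions. The deposited values are FPKM per gene for each library, a unit read from the values: 100.00% of values above 0 were whole multiples of 1 read's worth to within 0.001 reads, and the reads so recovered gave the depths and a limma-voom alternative. Replicates were not pooled, and no library was dropped or imputed.

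FPKM were scaled between libraries by a trimmed mean of log ratios (TMM; 30% and 5% trimmed), 0.1 was added, and log2 values were tested with limma 3.58.1 (R 4.3.3, trend) for genes that reached 0.5 FPKM in 4 or more libraries, with Benjamini-Hochberg adjustment. Overlap between groups was read from deposited FPKM. The difference between fractions was fitted on IP minus input per mouse. IP over input came from 20 control mice of the other experiments. Other scalings, pseudocounts, filters, a replicate block and left-out mice were tried. The scripts were tested on simulated data.

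Members, gene lists and tests were chosen with earlier results of these data known. Named genes were taken from the following, of which not every gene is named: the 10 strongest rises and the 10 strongest falls (called, averaging 2 FPKM or more, groups apart), up to 5 called members averaging 1 FPKM or more and up to 3 most abundant other members per list, the 8 strongest each way among genes enriched in IP, the 5 largest rises and falls in mean FPKM, the 5 largest differences each way between fractions, and genes that lead a list by role. Untested genes named beside them (Tnf, Il1a, Il1b and markers near 0), and the members chosen within these limits, were picked after their values were seen.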

Additional observations from a re-analysis of the deposited data

Results flagged for a closer look

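A gap test on the FPKM of each gene (Dixon's test at its critical value for 4 mice), which chance passes in about 1 in 20 groups, singled out LPS replicate 2 in the LPS group. Of 198 genes examined, 37 passed in the LPS group, and replicate 2 was the mouse apart in all 37.

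It was the highest LPS mouse for Hes5 (4.98 FPKM), Gpr17 (4.68 FPKM), Nrarp (14.4 FPKM), Ak4 (5.78 FPKM), Shisa2 (1.92 FPKM), Fam13c (9.44 FPKM), Kctd21 (5.22 FPKM), Insc (2.21 FPKM), Ppp1r3g (7.20 FPKM), Id4 (125 FPKM), Drd1a (51.3 FPKM), Foxj1 (52.5 FPKM), Tlr4 (1.87 FPKM), Lifr (14.4 FPKM), Slc30a10 (2.76 FPKM), Ptgds (632 FPKM), Lfng (41.3 FPKM), Ptch1 (26.9 FPKM), Fgfr2 (28.9 FPKM), Fzd10 (2.39 FPKM), Wnt7a (10.2 FPKM), Sox8 (24.1 FPKM), Sox2 (74.9 FPKM) and Ptgs1 (3.16 FPKM). It was the lowest for Maff (6.06 FPKM), Mt2 (671 FPKM), Il13ra1 (7.15 FPKM), Il17ra (8.59 FPKM), Stat5a (2.54 FPKM), Mafk (8.03 FPKM), Fkbp5 (34.05 FPKM), Cdkn1a (61.3 FPKM), Nfil3 (3.99 FPKM), Txnrd1 (34.6 FPKM), Id3 (143 FPKM), Id1 (27.4 FPKM) and Col4a1 (5.92 FPKM). The reason for its position was not tested.

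In the vehicle group 10 of 198 genes passed, which is about the share that chance alone passes in this test. The vehicle genes are therefore listed without a claim that any mouse stood apart. Replicate 4 was the highest for Socs3 (3.51 FPKM), Stat5a (1.98 FPKM), Casp8 (0.840 FPKM) and Mgp (1.59 FPKM) and the lowest for Mt3 (559 FPKM). Replicate 2 was the highest for Hes5 (29.4 FPKM) and the lowest for Vtn (7.20 FPKM), Klf2 (0.287 FPKM) and Id3 (84.1 FPKM), and replicate 1 was the highest for Vasp (5.03 FPKM).

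The effect of LPS differed between IP and input of the same mice by limma's test of the difference for Olfml3 (3.66 log2 units more in IP), P2ry12 (2.87), Hpgd (2.60), Lrg1 (2.35) and Mgp (2.32). It differed the other way for Saa3 (-3.12), Mmp14 (-1.80), Plaur (-1.79) and Vasp (-1.60).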

How the results depend on the processing

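The counts of genes higher, and higher by at least 2-fold, moved by under 1.5 times under other scaling, pseudocounts, filters, the replicate block, the spread from all 48 IP libraries and limma-voom on recovered reads. Genes lower numbered 4022 without scaling and 3685 with the spread from all 48 IP libraries, against 2199. Genes lower by at least 2-fold numbered 438 without scaling and 79 with a pseudocount of 1 FPKM, against 253. Genes whose effect was lower in IP than in input numbered 1122 without scaling, against 396, and those higher in IP 634, against 856. With 1 mouse left out, genes higher ran from 1432 to 4349, genes lower from 820 to 4045, genes lower by at least 2-fold from 93 to 568, effects higher in IP from 254 to 2605, effects lower in IP from 85 to 2106, input genes higher from 1028 to 4397 and input genes lower from 775 to 4348. In each case the highest count was without LPS replicate 2; the cause was not tested.

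The replicate numbers were not treated as pairs of mice. Same-numbered mice deviated from their group means with correlations of 0.16, 0.093, -0.052 and -0.0091, which cannot settle whether the numbers pair mice. With the replicate number as a block 2341 genes were higher and 1695 lower. Of 198 named genes, 149 were called and none reversed. Besides leaving out mice, calls were lost for 2 without scaling, 1 without the filter, 1 with the block, 1 with the spread from all 48 IP libraries and 3 by voom. Calls were gained with that spread for 10 (Psmb9, Ifit3, Bst2, Lfng, Ptch1, Sox2, Ptgs1, Cd59a, Ncam1 and Nrcam), with the block for 3 of these (Psmb9, Ifit3 and Bst2) and without scaling for 1 (Ptgs1). A sex covariate was not run. Alternatives for input, for the other 7 mice in the difference between fractions and for enrichment in control mice were chosen after seeing the data. At these depths, genes under 0.5 FPKM in most libraries were not tested.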

Other observations

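Stress and repair genes were called in part. Of 14 tested heat shock genes, 7 rose and 0 fell (9 and 1 without LPS replicate 2), but 5 rose and 4 fell without scaling between libraries. Over all 13641 genes the unscaled fit called 1833 higher and 4022 lower. Hspb1, a small heat shock protein that protects actin filaments, stood at 4.21, 4.01, 3.25 and 6.36 FPKM in vehicle and 135, 49.3, 144 and 79.7 FPKM in LPS mice, without overlap, for a log2 change of 4.56 ± 0.38 (limma adjusted p = 0.000389). Of 20 genes of endoplasmic reticulum and amino acid stress, 7 rose and 0 fell (8 and 3 without LPS replicate 2). In the cell cycle list 5 of 10 tested rose and 2 fell, and 7 of the 17 listed were under the minimum for testing. Among these, Mki67, Top2a, Ccnb1, Ccna2 and Cdk1, genes of dividing cells, were at most 0.413 FPKM in any of the 8 mice. The cyclin Ccnd1 stood at 10.7, 9.59, 8.48 and 15.7 FPKM in vehicle and 63.7, 39.2, 50.6 and 59.1 FPKM in LPS mice and rose by 2.42 ± 0.23 (limma adjusted p = 0.000650). Of 19 trophic and synaptic factors, 5 rose and 2 fell, against 3 and 4 without scaling between libraries, and 1 fell without LPS replicate 3 or 4 or any 1 vehicle library.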
